A study of Mus musculus with 6 samples.

Results

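Megalin, the very large endocytic receptor encoded by Lrp2, was followed here together with 6 genes of endocytic or scavenger receptors and their partners: Cubn, Amn, Dab2, Lrpap1, Lrp1 and Colec12. They were taken by gene symbol from a table of 34745 genes, and all 7 were found and had enough counts to enter the comparison. The list was chosen by name with earlier results of these libraries known: the measured values behind it are the fold changes between PDTLN1 and control, in which Lrp2 and Colec12 were among the genes with higher values after treatment. Fold changes of the 7 genes are therefore given as a description, without a test. The data are RNA sequencing of the P19 line (mouse embryonal carcinoma cells with the properties of pluripotent cells), in 3 control libraries without treatment and 3 libraries from cells given the peptide PDTLN1. All cells were grown in serum-containing alpha-MEM, and the labels leave out both dose and time of the treatment.

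Total gene counts lay between 10381307 and 11663081 per library. Whether the libraries are separate cultures is not stated in the labels, so p-values measure only the spread between these libraries, which may be technical. The libraries numbered 1 stood apart from their groups on the first principal component: control 1, at -17.0, lay on the side of PDTLN1 libraries 2 and 3, and PDTLN1 library 1, at 18.3, on the side of controls 2 and 3. Values without those libraries are given below.

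Megalin and LRP1 belong to the LDL receptor family, whose long extracellular parts bind many unrelated ligands, carry them into clathrin-coated pits and return to the surface after the ligand has been released in endosomes. Cubilin, the product of Cubn, has no membrane span of its own and reaches the surface through amnionless, the product of Amn. In the kidney tubule and the yolk sac endoderm, this pair works beside megalin. Dab2 links receptor tails to clathrin and the AP-2 complex, Lrpap1 encodes the chaperone RAP that keeps new receptors of the family from binding ligands too early, and Colec12 encodes a collectin-type scavenger receptor.

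Promoters were compared because megalin and cubilin, partners in the kidney, sat far apart in level in these cells. The part of promoter sequence in that difference was not tested. RefSeq promoters (build GRCm38.p6, 250 bases before to 50 after the gene start) were matched for 6 of the 7 genes. RefSeq's starts are not those of the deposited table: the Cubn window ends short of the Cubn start given below (13491813), and the Lrp2 window is placed on a start inside the table's gene. Those of Lrp2 and Cubn are shown 5′ to 3′ on the gene's strand, which is minus for both, with each GGGCGG (the GC box) in capitals.
Lrp2, chr2:69585980-69586279: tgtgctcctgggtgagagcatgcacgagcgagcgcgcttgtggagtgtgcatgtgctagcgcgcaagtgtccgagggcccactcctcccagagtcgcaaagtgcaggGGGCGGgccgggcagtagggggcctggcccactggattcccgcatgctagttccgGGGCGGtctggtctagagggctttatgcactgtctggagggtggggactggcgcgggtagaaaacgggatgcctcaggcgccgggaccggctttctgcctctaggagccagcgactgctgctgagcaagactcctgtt
Cubn, chr2:13491827-13492126: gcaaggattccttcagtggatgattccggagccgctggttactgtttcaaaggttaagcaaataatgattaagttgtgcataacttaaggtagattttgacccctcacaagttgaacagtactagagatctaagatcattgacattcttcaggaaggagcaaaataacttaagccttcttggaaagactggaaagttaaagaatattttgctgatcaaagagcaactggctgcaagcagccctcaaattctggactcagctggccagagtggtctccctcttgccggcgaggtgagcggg
The Lrp2 promoter held 20 CpG sites and 65.0% G and C. Its 2 GC boxes began at -143 and -88, counted so that -1 is the base just before the gene start. In the Cubn promoter there were 5 CpG sites, 44.3% G and C and no GC box. GGGCGG or its reverse complement occurs in 35.7% of the 32851 promoters of this length, whose median is 7 CpG sites. Lrpap1 had 5 GC boxes and 18 CpG sites, Lrp1 had 1 and 16, and Amn had 1 and 15. Of the Dab2 promoters, the one starting at 6299539 on chromosome 15 had 2 CpG sites, the one starting at 6386498 had 19, and neither held a GC box. TATAAA (the TATA box, in 13.6% of all promoters, both strands searched) occurred in none of these sequences, and CCAAT (37.4%) in that of Amn only. No matches overlapped. These matches describe letters in the window and not binding.

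The 7 genes covered a wide range of levels. Levels between genes are compared by the deposited FPKM (counts scaled by gene model length and library total), which allows for the very different lengths of these transcripts. Colec12 was the highest at 36.3 ± 2.76 FPKM in controls and 45.4 ± 1.59 after PDTLN1 (SD, n = 3 each, as for all values in this paragraph). Lrp2 followed at 22.8 ± 2.16 and 31.4 ± 1.87, and Lrpap1 at 19.6 ± 0.657 and 21.2 ± 0.878. Lrp1 stood at 9.99 ± 0.677 and 10.3 ± 0.328 FPKM, about midway down the order. The lower end was formed by Dab2 at 1.64 ± 0.201 and 1.61 ± 0.216, Amn at 0.914 ± 0.175 and 1.02 ± 0.491, and Cubn at 0.139 ± 0.0537 and 0.134 ± 0.0152 FPKM.

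**Figure D1:**
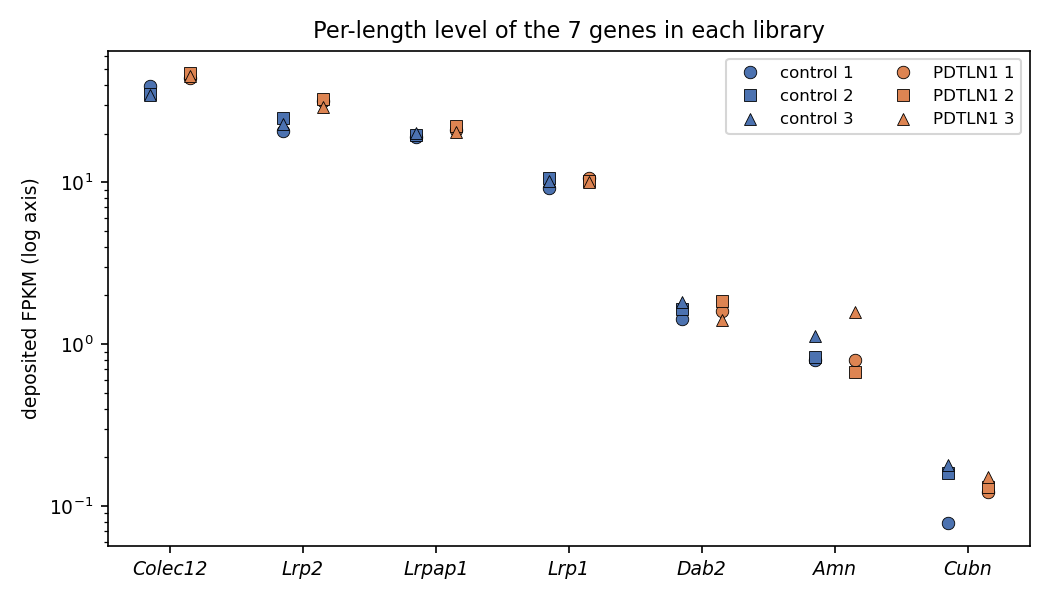
Deposited FPKM (log axis) of each gene in each of the 6 libraries, with genes ordered by their mean and colours marking control and PDTLN1. The genes run from Colec12, at 34.4 to 47.2 FPKM, down to Cubn, at 0.0783 to 0.180 FPKM.

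Most neighbours in this order had ranges over the 6 libraries that did not overlap. The exceptions were Lrp2 and Lrpap1, whose ranges over the 6 libraries overlapped (20.6 to 32.9 and 19.0 to 22.2 FPKM) although Lrp2 was the higher in each library, and Dab2 and Amn, which changed places in PDTLN1 library 3. Among all 13836 genes tested, Colec12 lay at percentile 92.1 of mean FPKM, Lrp2 at 87.3, Lrpap1 at 82.5, Lrp1 at 67.6, Dab2 at 25.2, Amn at 17.0 and Cubn at 1.13. The per-length level of Lrp2 was 128 to 264 times that of Cubn in the 6 libraries. The place of Colec12 rests on the length of its gene model. The deposited values imply 3322 bp for it, against 8725 bp of exons in the GENCODE M21 annotation, and the gene ends earlier in the table (9877995) than in that annotation (9882644 on chromosome 18). A second scaling divided the deposited counts by GENCODE exon lengths. Reads were not counted again on those exons, so its counts and lengths come from different gene models. With GENCODE exon lengths, Lrp2 came to a mean of 28.3, Lrpap1 to 27.5 and Colec12 to 15.6 on the same per-length scale. Lrp1 stayed below them, and Colec12 was the third in order. The order of Lrp2 and Lrpap1 then differed between the groups. In controls, Lrpap1 was the higher at 26.5 ± 0.886, against 23.8 ± 2.25 for Lrp2, and after PDTLN1 Lrp2 was the higher at 32.8 ± 1.95, against 28.6 ± 1.18 (SD, n = 3 each). That Lrp2 exceeded Lrpap1 in every library therefore holds for the deposited lengths only.

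Lrp2 (ENSMUSG00000027070) lies on the minus strand of chromosome 2 from 69424340 to 69586065 in build GRCm38, and its longest coding transcript has 79 exons. It drew 3754, 4645 and 4476 counts in controls, and 5781, 6606 and 5957 counts after PDTLN1, with libraries always given in the order of their numbers, 1 to 3. On the CPM scale (counts scaled to the library total after TMM adjustment), these are 360, 436 and 401 in controls and 559, 574 and 509 after PDTLN1. Every PDTLN1 library was above every control, and control 1 was the lowest of all. The log2 fold change was 0.46 with an SE of 0.08, or 1.37-fold. By CPM, which does not allow for length, Lrp2 stood at percentile 98.3 of the genes tested.

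Cubn and Amn, which together form the cubilin receptor, were close to the lower limit of what these libraries can measure. Cubn (ENSMUSG00000026726), on chromosome 2 from 13276338 to 13491813, had 13, 27 and 32 counts in controls and 20, 24 and 28 after PDTLN1. Control 1 was the lowest library, and the PDTLN1 libraries lay inside the range of the controls. Its log2 fold change was -0.05 with an SE of 0.33. Cubn shares 368 exonic bases with Gm13270 on the opposite strand, which had 42 counts over all libraries, and the use of strand in counting is not given in the sources used here. Amn (ENSMUSG00000021278), on chromosome 12 from 111271111 to 111276426, had 14, 15 and 21 counts in controls and 14, 13 and 31 after PDTLN1. The groups overlapped, and PDTLN1 library 3 was the highest. The log2 fold change of Amn was 0.15 with an SE of 0.38, and -0.32 without PDTLN1 library 3. Differences of the size seen for Lrp2 would not have been detectable at these counts.

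Dab2 and Lrpap1, the adaptor and the chaperone, differed in how their libraries lined up. Dab2 (ENSMUSG00000022150), on chromosome 15 from 6299788 to 6440712, stood at 18.4, 21.4 and 23.6 CPM in controls and at 20.6, 23.6 and 18.0 CPM after PDTLN1. The groups overlapped over nearly their whole range, and the log2 fold change was -0.03 with an SE of 0.14. Lrpap1 (ENSMUSG00000029103), on chromosome 5 from 35091501 to 35105766, stood at 105, 109 and 113 CPM in controls and at 117, 123 and 113 CPM after PDTLN1. The highest control (112.7 CPM) lay just under the lowest PDTLN1 library (113.1 CPM), so the groups did not overlap, by a narrow margin. Its log2 fold change was 0.11 with an SE of 0.06.

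The other large receptor of the set, Lrp1 (ENSMUSG00000040249), on chromosome 10 from 127538161 to 127621148, is the broadly expressed relative of megalin that clears protease complexes and lipoprotein remnants. It stood at 194, 222 and 212 CPM in controls and at 224, 212 and 210 CPM after PDTLN1. The groups overlapped, with control 1 the lowest library. Its log2 fold change was 0.04 with an SE of 0.06, and -0.04 without the libraries numbered 1. The ratio of Lrp2 to Lrp1, taken per length within each library, was 2.23, 2.35 and 2.27 in controls and 3.00, 3.25 and 2.91 after PDTLN1. These ratios were tighter among the controls (SD 0.0639 around a mean of 2.28) than Lrp2 itself. After PDTLN1 their SD was 0.174 around a mean of 3.05. The groups did not overlap, but Lrp2 was listed for its higher values after PDTLN1, so this separation restates its own contrast.

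Colec12 (ENSMUSG00000036103), on chromosome 18 from 9707648 to 9877995, stood at 131, 117 and 114 CPM in controls and at 147, 157 and 149 CPM after PDTLN1. Each PDTLN1 library was above each control. Control 1 was here the highest of the controls, whereas for Lrp2 it was the lowest. The log2 fold change was 0.32 with an SE of 0.07, or 1.25-fold.

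**Figure D2:**
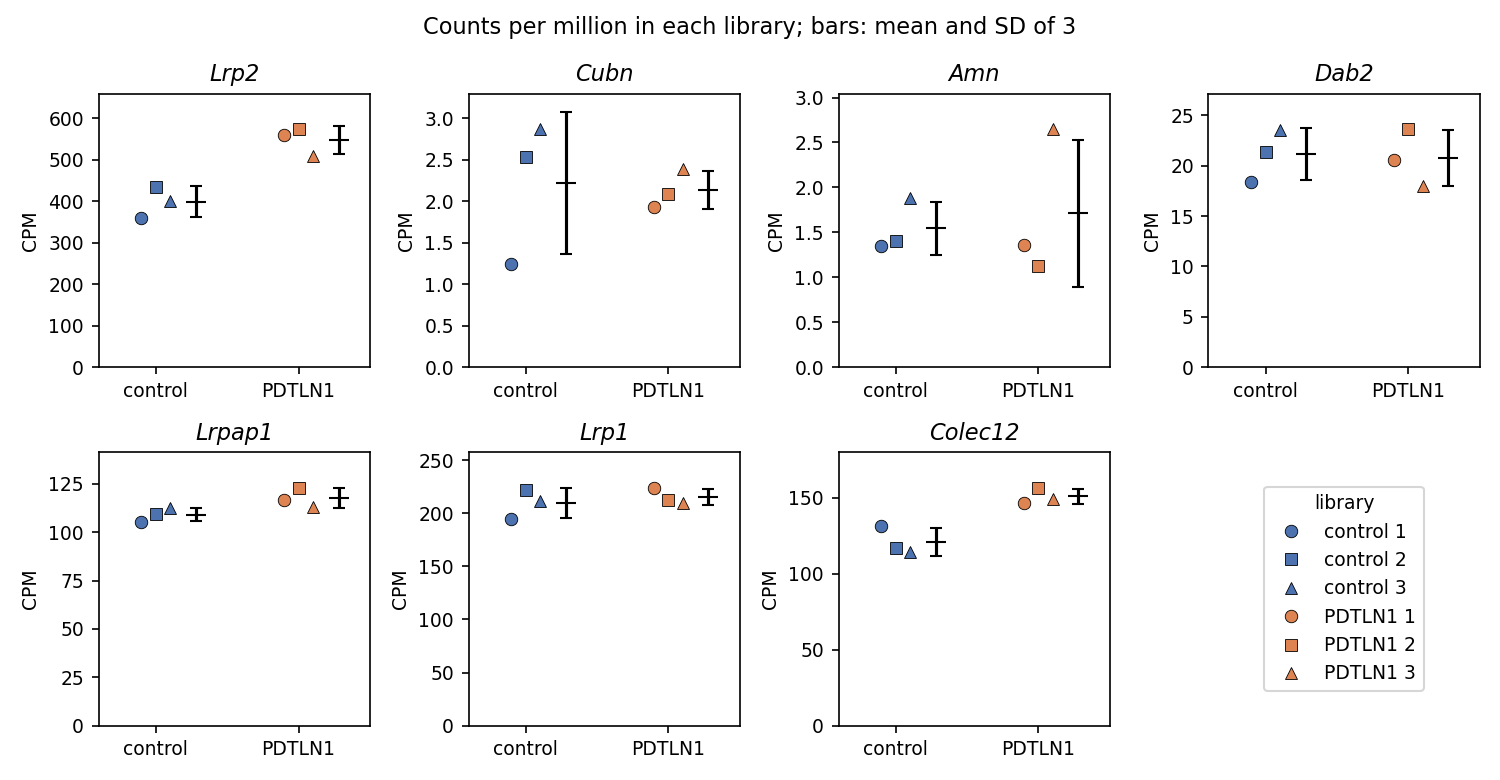
CPM (vertical axes, each starting at 0) of each gene by library, with points for the libraries and a black bar for the mean and SD of each group of 3. Lrp2 and Colec12 have all PDTLN1 points above all control points, Lrpap1 does so by a narrow margin, and the points of Cubn, Amn, Dab2 and Lrp1 mix.

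Set against the whole table, 0 of the 7 genes passed edgeR's quasi-likelihood test at an adjusted p under 0.05, where 0.0217% of the 13836 genes tested did. DESeq2's Wald test on the same genes called 1 of the 7, Lrp2, where it called 0.101% of all genes. Without the libraries numbered 1, edgeR called 1 of the 7, Colec12, where it called 0.652% of all genes. With no filter beyond 1 count, it called 1, Lrp2, against 0.0376%. Groups did not overlap, with PDTLN1 higher, for 3 of the 7 genes (Lrp2, Lrpap1 and Colec12), and for 4.81% of all genes tested. Since the list was made with this comparison in view, these counts carry no weight of their own.

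The fold changes of Lrp2, Lrpap1 and Colec12 kept their sign in all 13 alternative fits. The groups of these genes did not overlap in CPM, so leaving out libraries could not be expected to reverse the sign. The kept sign therefore carries no weight of its own. Lrp2 ranged from 0.37, without the libraries numbered 1, to 0.52, without control 2. Colec12 ranged from 0.28, without control 3, to 0.40, without the libraries numbered 1. Lrpap1 ranged from 0.07 to 0.14. The sign of the main fit was kept in 10 of the 13 for Cubn, 12 for Amn, and 11 each for Dab2 and Lrp1.

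**Figure D3:**
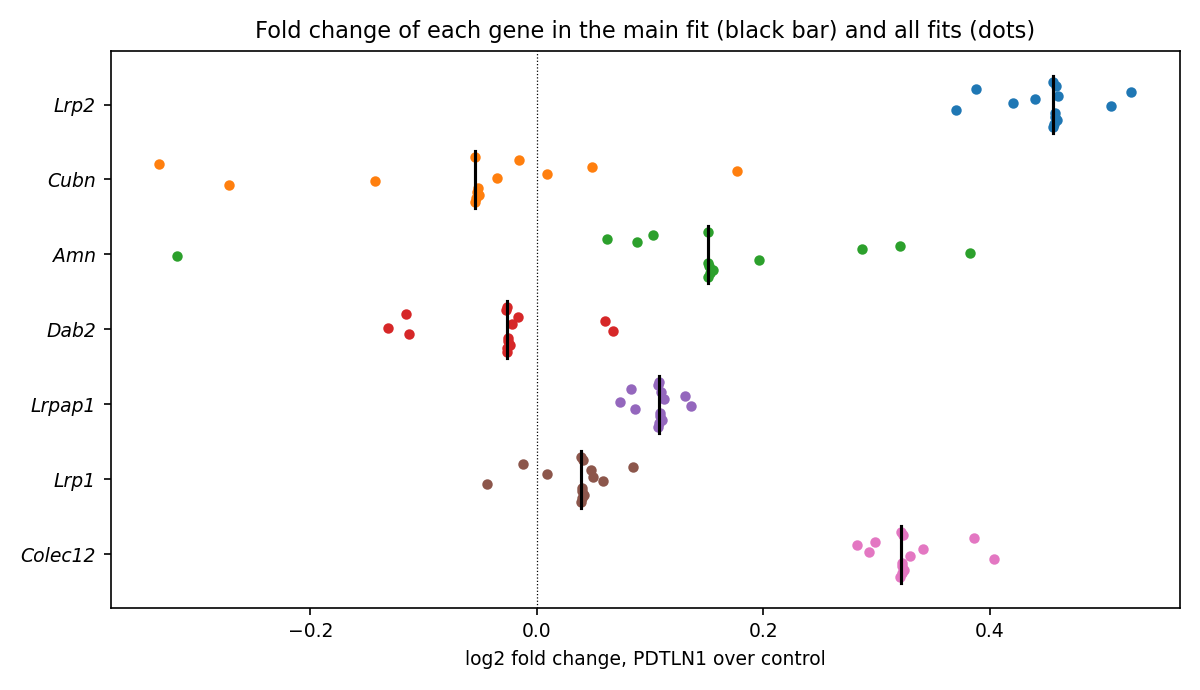
Log2 fold change of each gene (horizontal axis) in the main fit (black bar) and in all fits (dots), including those that leave out a library or change the scaling, filter or test. The dots of Lrp2, Lrpap1 and Colec12 all lie above 0, those of Lrp2 between 0.37 and 0.52, and those of the other genes fall on both sides.

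Spread between replicates, which does not use the contrast of the groups, differed widely among the 7 genes. Lrp2 varied by 9.44% in controls and 6.26% after PDTLN1 (coefficient of variation of CPM, n = 3 each), where counting noise alone gives 1.53% and 1.28%. Lrpap1 varied by 3.29% in controls, near its counting noise of 2.92%, and by 4.29% after PDTLN1, or 1.56 times its counting noise of 2.76%. Colec12 varied by 7.66% in controls and 3.39% after PDTLN1, and Lrp1 by 6.75% and 3.58%. For Amn, the value of 19.1% in controls lay below its counting noise of 24.5%, and that of 47.9% after PDTLN1 lay above it, at 22.7%. Cubn varied by 38.6% in controls, with control 1 far below the others, and by 10.9% after PDTLN1, against 20.4% from counting in both groups. In edgeR's per-gene estimate of biological variation, Lrp2 stood at 8.60%, Lrpap1 at 7.78%, Lrp1 at 7.52% and Colec12 at 8.10%. These lay below the median of 11.7% over the genes tested. Dab2 at 12.7%, Cubn at 21.1% and Amn at 24.3%, the members with the fewest counts, lay above it.

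Across the 6 libraries, the genes most like Lrp2 in log2 CPM were Fras1, a basement membrane protein (r = 0.992), Utrn, the dystrophin relative utrophin (r = 0.989), Mme, the membrane peptidase neprilysin (r = 0.983), R3hdm1 (r = 0.982) and Dicer1, the microRNA-processing nuclease (r = 0.981). These are descriptions over 6 points that share the treatment groups and the library scaling, and 81 of 9928 genes at a mean of 10 CPM or more (0.816%) had an r above 0.9. Likeness of shape did not go with size: the log2 fold change was 0.38 for Mme and 0.26 for Fras1, but 0.05 for R3hdm1. For Colec12, the most alike were Plekhg1 (r = 0.995), Parm1 (r = 0.992) and Jam2, a junctional adhesion molecule (r = 0.987). Within the set, the r with Lrp2 was 0.881 for Lrpap1, 0.771 for Colec12, 0.594 for Lrp1 and 0.208 for Dab2. The r of Colec12 with Lrp1 was -0.02 and with Dab2 -0.23.

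Gene model length moved with the comparison over all genes, which was examined after these values had been seen. Among genes at 10 CPM or more, the 2297 with a model of 10000 bp or longer had a median log2 fold change of 0.04, with 63.9% above 0, and 8.71% were higher after PDTLN1 without overlap. In the 1010 genes under 2000 bp, the median was -0.03, with 35.9% above 0 and 1.68% higher without overlap. The model of Lrp2 is 17424 bp long, and 34 of the long genes (1.48%), with Lrp2 itself counted among them, had a log2 fold change of at least its value. Lrp1, at 20915 bp, is longer still and stood at 0.04, and Dab2, at 12857 bp, stood at -0.03. Colec12, at 3322 bp, belonged to a class of 3144 genes (2000 to 5000 bp) with a median of -0.02. All these lengths are those implied by the deposited values, and the places of Dab2 and Colec12 rest on them. GENCODE exons come to 7342 bp for Dab2 and 8725 bp for Colec12, so both would lie between 5000 and 10000 bp. The part of length in the Lrp2 value was not tested.

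**Figure D4:**
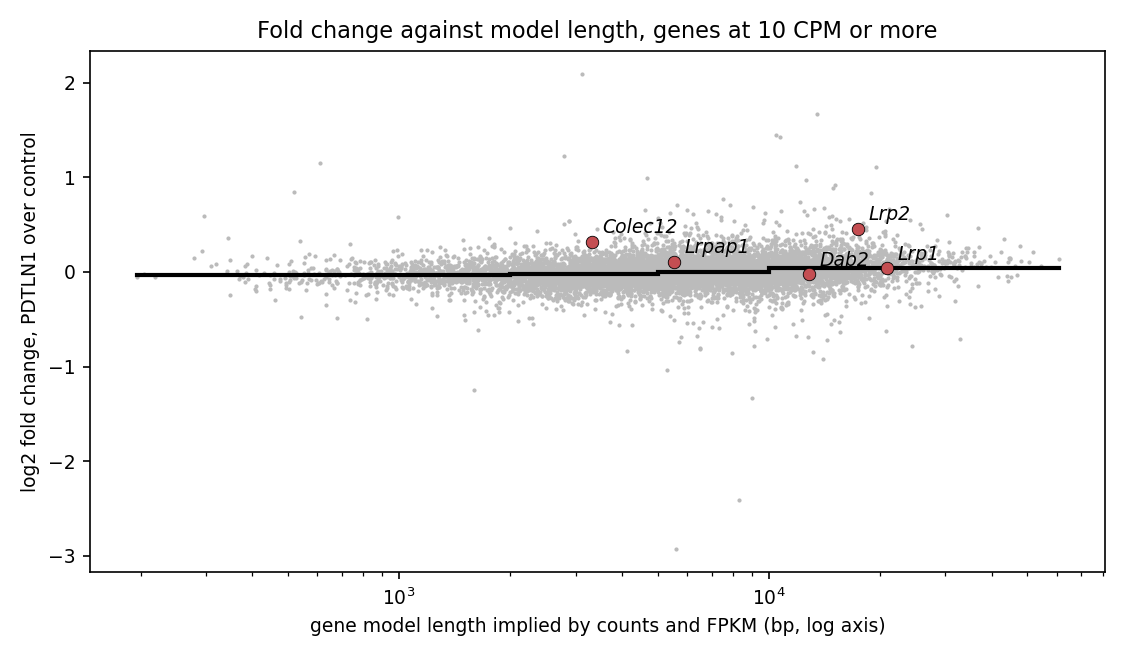
Log2 fold change against the gene model length implied by counts and FPKM (log axis), with grey points for genes at 10 CPM or more, black lines for the median of each length class, and red points for the 5 genes of the set that reach this level. The class medians run from -0.03 for the shortest models to 0.04 for the longest; Lrp2 lies at 0.46 and Lrp1 at 0.04.

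Other genes linked to endocytic uptake were grouped into 7 lists of 129 genes, of which 111 were tested. By edgeR's quasi-likelihood test, 0 of the 111 passed at an adjusted p under 0.05 in either direction, and 0 did with DESeq2. At an unadjusted p under 0.05 there were 3 higher and 5 lower. Of all genes tested, 3.99% had such a p, 2.3% higher and 1.69% lower. The median log2 fold change of the 111 was -0.02, beside -0.00087 over all genes tested.

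In the LDL receptor family, Lrp10 averaged 20.2 FPKM and Lrp6, the Wnt co-receptor, 12.7 FPKM, both below the 27.1 FPKM of Lrp2 over the 6 libraries. Lrp1b, a close relative of LRP1, had 32 counts in all and was not tested. Of the 13 tested relatives, 8 lay above 0 and 5 below, with a median of 0.04. Lrp12, among those with the smallest p, had a log2 fold change of 0.17 (SE 0.11), and Lrp6 and Lrp10 had 0.17 and -0.05. None of these passed.

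The genes that mature and cut these receptors had 3 of 12 above 0 and a median of -0.05. Hsp90b1, a chaperone of the endoplasmic reticulum, was the most abundant at 210 to 299 FPKM over the libraries, and Ncstn, a subunit of the gamma-secretase that cleaves receptor stubs in the membrane, averaged 20.2 FPKM. Aph1a and Psenen, from the same enzyme, had the smallest p, with log2 fold changes of -0.16 (SE 0.11) and 0.38 (SE 0.27). Of the cargo adaptors and tail binders, 4 of 12 lay above 0, with a median of -0.02. Gipc1, which binds the megalin tail, averaged 49.9 FPKM, Mapk8ip1 10.5 and Shc1 9.89. The smallest p belonged to Gipc1 and Mapk8ip2, at log2 fold changes of -0.16 (SE 0.08) and -0.21 (SE 0.10).

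Coat genes were led by clathrin and its assembly protein. Cltc, the clathrin heavy chain, averaged 137 FPKM, Picalm, a clathrin assembly protein, 58.2, and Clta, a light chain, 51.2, with log2 fold changes of 0.06, 0.02 and -0.01. Over the 28 genes of the coat and of vesicle scission, 12 lay above 0 and 16 below, with a median of -0.02. Fcho1, which starts coated pits, had the smallest p at -0.23 (SE 0.09), at 32.6 ± 1.28 CPM (control) and 27.7 ± 1.47 CPM (PDTLN1; SD, n = 3 each), and Itsn2, an endocytic scaffold, followed at 0.14 (SE 0.06).

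Endosomal genes had 7 of 22 above 0 and a median of -0.05. Rab5c, a GTPase of early endosomes, went from 89.4 ± 10.5 CPM (control) to 111 ± 7.26 CPM (PDTLN1; SD, n = 3 each), with a log2 fold change of 0.32 (SE 0.09). Clcn5, the endosomal chloride-proton exchanger whose loss impairs megalin recycling in the kidney, stood at 244 ± 14.8 and 277 ± 23.2 CPM (SD, n = 3 each) and had 0.18 (SE 0.07). Rab11b and Ehd3, which serve recycling and are named here because their unadjusted p was under 0.05, had -0.62 and -0.17. By level the leading genes were Vps35, of the retromer coat, at 114 FPKM, Rab5a at 43.4 and Vps26a at 26.6, with log2 fold changes of -0.07, 0.00 and -0.05. Vps26a varied widely, at 17.7 to 42.2 FPKM over the libraries.

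By deposited FPKM, Colec12 was above every other scavenger receptor listed. Scarb2, a lysosomal receptor, averaged 9.22, Cd68 3.73 and Scarb1, the HDL receptor, 3.58 FPKM. Of the 18 others, 8 were tested, with 3 above 0 and a median of -0.06, and Marco had 0 counts in every library. Scarf1 and Scarf2 had the smallest p, at -0.47 (SE 0.21) and 0.32 (SE 0.18). Among ligands, 16 of 22 were tested and 8 lay on each side of 0, with a median of 0.00030. Mdk (midkine), Mt1 (a metallothionein) and Apoe led by level, at 102, 52.6 and 46.3 FPKM, and had log2 fold changes of -0.01, 0.33 and -0.22. Rbp4, the retinol carrier, was among those with the smallest p, at -0.65 (SE 0.22), at a low level of 6.09 CPM in controls. Thbs1, named for its unadjusted p, had 0.30.

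**Figure D5:**
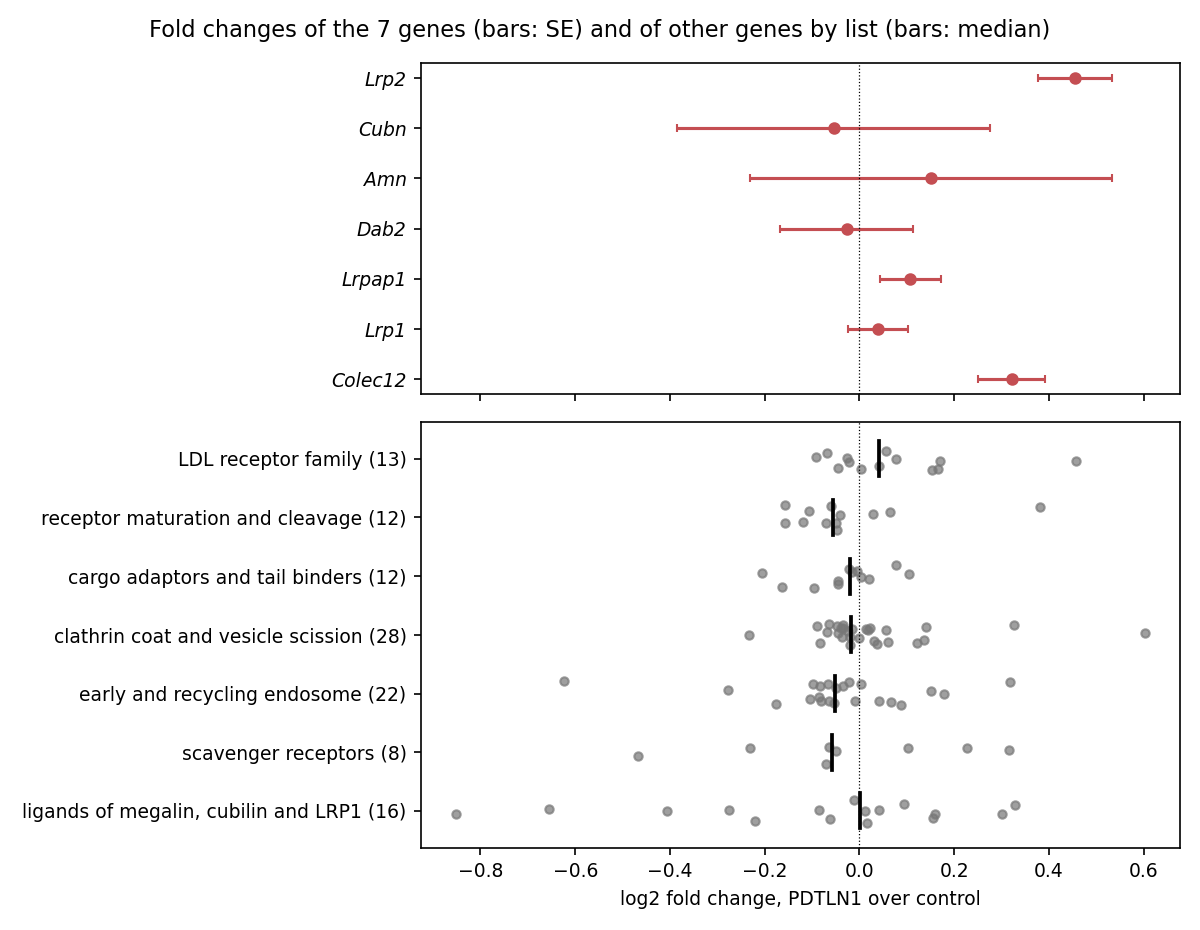
Log2 fold change (horizontal axis) of the 7 genes with their SE (top) and of the tested genes of the 7 pathway lists (bottom; grey points are genes, black bars medians, list sizes in brackets). List medians lie between -0.06 and 0.04, and Lrp2 at 0.46.

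Markers of other cells that use megalin or scavenger receptors were mostly near 0. Of 8 kidney proximal tubule genes, 0 reached the level for testing, and Slc34a1, Slc22a6 and Kap had 0 counts in all libraries, which allows up to 0.256 to 0.290 CPM (3 counts per library, counting error only). Of 16 genes of extraembryonic endoderm, where megalin, cubilin and amnionless work together, 4 were tested. These were Gata6 at 32 to 40 counts per library, Pdgfra at 67 to 105, Fgfr4 at 39 to 100 and Rhox5 at 12 to 25, with log2 fold changes of -0.10, 0.51, -0.68 and 0.12, none of which passed edgeR's adjusted threshold. Of the other 12, Hnf4a, Afp and Sox17 had at most 3, 8 and 4 counts in any library, and the summed FPKM of the list was 5.95 to 6.82 in controls and 4.55 to 7.93 after PDTLN1. In the neuroepithelial list, 5 of 8 were tested, and the sum was 21.8 to 26.6 in controls and 24.0 to 31.2 after PDTLN1. Nes, at a mean of 22.1 FPKM (18.7 to 28.4 over the libraries), made up most of that sum. The next highest, Sox1, averaged 0.998 FPKM. Macrophage genes had 2 of 8 tested, Cd68 and Lyz2, with Ptprc at 0 to 6 counts and a sum of 6.89 to 9.41 and 7.56 to 8.02 FPKM. Endothelial genes had 3 of 8 tested, Emcn at 0 and a sum of 1.75 to 2.07 and 1.79 to 2.00 FPKM. The part of these lists in the Lrp2 and Colec12 values was not tested; in bulk RNA, fewer cells of a type and less RNA per cell cannot be told apart.

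The pluripotency genes summed to 963 to 997 FPKM in controls and 904 to 957 after PDTLN1, led by Pou5f1 and Lin28a at 525 and 203 FPKM. Zfp42 and Dppa5a, from the same list, had at most 5 and 4 counts in any library. The extraction text of the labels names another tissue, the retina. Of 8 photoreceptor genes, 0 were tested and Crx, Arr3 and Opn1sw had 0 counts in all libraries.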

How the data were processed

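RNA sequencing libraries of P19 cells, 3 control and 3 given PDTLN1, were made with a TruSeq kit, per the labels. The authors' table holds whole-number counts per gene and FPKM, per the file headers. The deposited FPKM follow the deposited counts: they imply 1 gene model length per gene in all libraries. Bowtie 0.12.2 and the builds mm8 and mm9 are named, with no role, per the submitters' processing notes; which counter, strand setting and annotation were used is not given in the sources used here. Of 34267 gene identifiers found in GENCODE M21 (GRCm38), 80.8% had the same position in the table, so positions are given as the table has them, in GRCm38.

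Counts were fitted with edgeR 4.0.16 in R 4.3.3 (filterByExpr, TMM, glmQLFit with robust estimation, glmQLFTest), with Benjamini-Hochberg adjustment over 13836 genes, a threshold of 0.05 and the SE as fold change over the root of F. CPM use TMM-scaled library sizes. The steps were tested on simulated data. Alternatives were a block on the replicate number, fits without each library or without both numbered 1, DESeq2 1.42.0 (test, or size factors alone), library totals, and 2 filters. Gene lengths from GENCODE and the length classes were added after seeing the data. Likeness is Pearson's r of log2(CPM + 0.5).

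The 7 genes, the lists and the alternatives were chosen with earlier results of these data known. Named are the 7 genes, per list the 3 others with the highest mean FPKM and the 2 with the smallest p, the 5 genes most like Lrp2 and the 3 most like Colec12. Some genes that this rule would name are not reported here. Titles give both groups the same replicate numbers, and no label says that a number marks a shared culture, so the main fit leaves the number out.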

Additional observations from a re-analysis of the deposited data

How the results depend on the processing

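With 3 genes called in the main fit, the count was 1 with the replicate number as a block, 14 with DESeq2, 8 with no filter beyond 1 count and 91 without both libraries numbered 1. Leaving out 1 library gave 2 to 13: 13 without control 1, 5 without control 3, 8 without PDTLN1 library 1 and 6 without PDTLN1 library 2. DESeq2 size factors, library totals and a filter of 1 CPM in 3 libraries gave 3. None of these called any other gene of the pathway lists. GENCODE exon lengths, a choice made after seeing the data, were applied to the deposited counts without counting reads again. The control level of Lrp2 was then 2.02 times that of Lrp1 in place of 2.29, and 1.72 times that of Colec12 in place of 0.629. The deposited models of these genes have other lengths. TPM in place of FPKM left the ratio of Lrp2 to Lrp1 at 2.29. TPM rescales all genes of a library alike, so the ratio within a library could not change.

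Libraries with the same number did not deviate together (r across genes of -0.36, -0.14 and -0.10), and in 0 of 3 cases was the same number the best match of a control, so the numbers show no pairing. Cubn and Amn, at 13 to 32 counts per library, are limited by depth.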

Other observations

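The gene models behind the deposited FPKM differ from GENCODE M21 by gene. The length implied for Dab2, 12857 bp, is 1.75 times its GENCODE exon length, and that of Lrpap1, 5549 bp, 1.35 times. For Lrp2, Cubn and Lrp1 the factors were 1.04, 1.06 and 1.18, for Amn 0.914 and for Colec12 0.381. These factors move levels between genes and leave differences between libraries as they are.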
